A study of Drosophila melanogaster with 2 samples.

Results

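The mitochondrial ribosomal protein genes (mRp genes) of Drosophila melanogaster were examined for binding of gsb, or gooseberry, an embryonic transcription factor of the Pax family that has a paired domain and a homeodomain. They are the 73 protein-coding genes whose symbol starts with mRpL or mRpS, of 13945 protein-coding genes in the Ensembl annotation of the main chromosome arms. The genes were chosen by symbol. The group was proposed after the peak signals of these data were known, with mRpL41 and mRpL23 among the 20 strongest peaks, so the signals below are descriptions and carry no test.

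Chromatin immunoprecipitation and sequencing (ChIP-seq) was carried out with an antibody against GFP on whole embryos of 0 to 18 h from flies of the gsb-GFP strain, which carry an insertion that makes a gsb-eGFP fusion protein. There was 1 group of 2 biological replicates, and the values are those of peak lists, from which the depth of the libraries is unknown. Each peak has a signal set by the peak caller. The sources used here do not give its scale, and it can be compared only within 1 list. The labels name a possible control experiment, and whether it entered the peak calls is not known here. A gene was counted as having a promoter peak where a summit of the combined list, the authors' thresholded list from both replicates, lay within 1 kb of any of its transcription start sites (TSSs). In whole embryos, few cells with strong binding and many cells with weak binding cannot be told apart.

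Mitochondria keep ribosomes of their own, which make the small set of respiratory chain proteins encoded in mitochondrial DNA. Almost all proteins of these ribosomes are encoded in the nucleus, made in the cytosol and imported, with the mRpL genes encoding the large subunit and the mRpS genes the small subunit. Many have a counterpart in the bacterial ribosome, and others, such as the products of mRpL41 and mRpS23, are found in mitochondrial ribosomes only. The genes are active in most tissues, and gsb is known for patterning of the segments and of the nervous system.

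Of the 73 mRp genes, 10 had a promoter peak. The sequences around 5 of those summits are shown because they carry the differences described below: 4 strong summits, which have no searched motif common to all of them, and the weak summit at mRpS7, which is as rich in A and T as the strong ones. They are the plus strand of dm6, taken from the RefSeq copy of Release 6, over 100 bases on each side of the summit where these are free of exons. Capitals mark the searched motifs described further below, which are ACAGTG at mRpS23, AGGGTA at mRpS10, and the homeodomain core TAATTA at mRpS2 and mRpS7, each on either strand. The window at mRpS2 ends at an exon of Mon1, whose bases are left out, and the window at mRpL20 holds none of the motifs.
mRpS23, chr2L:13835358-13835558: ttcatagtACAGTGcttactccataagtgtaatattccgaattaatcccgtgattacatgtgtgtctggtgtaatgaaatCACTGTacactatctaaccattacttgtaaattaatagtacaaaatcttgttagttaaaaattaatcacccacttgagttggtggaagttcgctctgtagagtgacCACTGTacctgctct
mRpS10, chr3R:15229436-15229636: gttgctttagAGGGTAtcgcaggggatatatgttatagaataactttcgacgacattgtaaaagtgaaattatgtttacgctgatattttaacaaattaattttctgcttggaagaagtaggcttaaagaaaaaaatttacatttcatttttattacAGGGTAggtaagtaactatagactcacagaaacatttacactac
mRpS2, chr2L:4850468-4850640: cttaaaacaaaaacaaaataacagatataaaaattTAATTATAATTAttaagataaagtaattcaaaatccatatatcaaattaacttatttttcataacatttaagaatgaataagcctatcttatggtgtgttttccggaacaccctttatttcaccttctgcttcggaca
mRpL20, chr3L:13018040-13018240: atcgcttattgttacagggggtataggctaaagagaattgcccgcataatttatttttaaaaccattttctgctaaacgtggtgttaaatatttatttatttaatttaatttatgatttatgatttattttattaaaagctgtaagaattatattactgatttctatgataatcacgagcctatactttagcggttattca
mRpS7, chr2L:10386394-10386594: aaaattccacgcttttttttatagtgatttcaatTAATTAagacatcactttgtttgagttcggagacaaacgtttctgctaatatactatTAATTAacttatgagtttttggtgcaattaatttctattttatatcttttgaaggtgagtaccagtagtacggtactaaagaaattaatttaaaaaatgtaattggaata

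As a group, the mRp genes carried promoter peaks about as often as other genes, and the peaks they did carry fell into a strong and a weak set. The 10 genes with a peak are 13.7% of the mRp genes (exact 95% interval 6.77 to 23.8%), beside 13.8% of all protein-coding genes. The interval covers counting error only. With a window of 2 kb the count was 21, 28.8% of the group, beside 18.1% of all genes, and 7 of the 11 added summits lay within 1 kb of the start of another gene. Among the 20 strongest peaks of the combined list, however, 4 lay at mRp genes, 5.48% of the group (1.51 to 13.4%), beside 0.201% of all genes, or 28 genes. The signals of mRpL41 and mRpL23 were part of why the group was examined, so nothing is read from that difference.

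The share stayed near the background in each list. In the list of replicate 1, 7 mRp genes (9.59%) had a promoter peak, beside 9.89% of all genes. In the list of replicate 2, 8 (11.0%) had one, beside 9.46%. In the conservative joint list the number was 10 again, with mRpL32 in place of mRpL4, beside 13.2% of all genes. Counting only peaks in the part of the combined list above its median signal left 7 mRp genes (9.59%), beside 8.63% of all genes. Among genes with 1 annotated TSS, 8 of 67 mRp genes (11.9%) had a peak, beside 9.79%.

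By subunit, 5 of 47 large subunit genes (10.6%, interval 3.55 to 23.1%) and 5 of 26 small subunit genes (19.2%, interval 6.55 to 39.4%) had a promoter peak. The intervals overlap widely. By chromosome arm, a peak was at 5 of the 12 mRp genes on 2L (beside 13.6% of all genes there), 2 of 12 on 2R (14.1%), 2 of 17 on 3L (15.3%), 1 of 21 on 3R (13.9%) and 0 of 11 on X (12.2%). The arms hold few members each, and differences between arms were not tested.

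**Figure D1:**
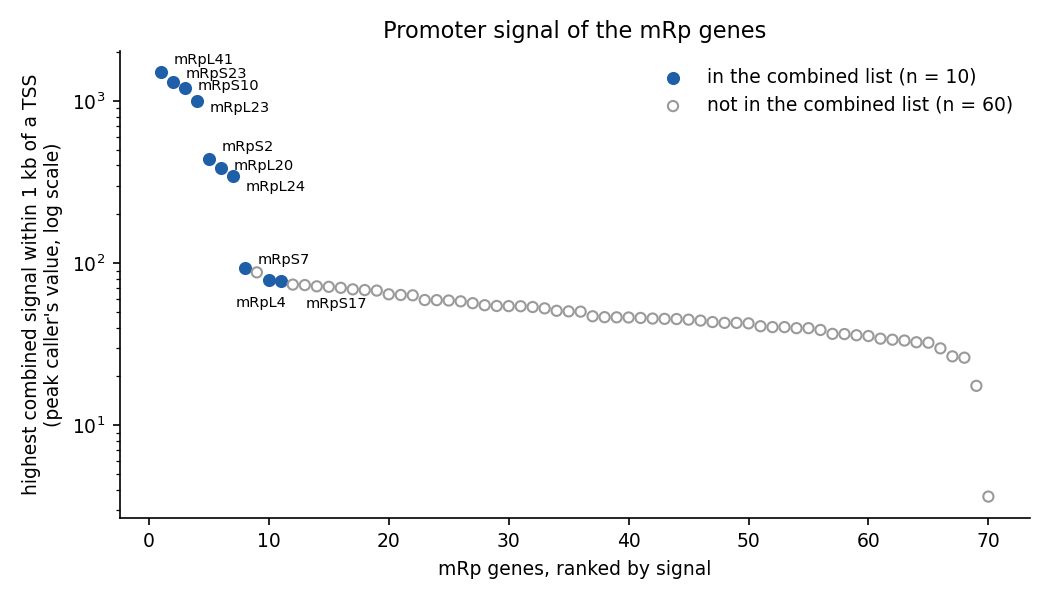
Highest combined signal within 1 kb of a TSS (log axis, the peak caller's value) for the 70 mRp genes with a candidate region, ranked; filled points are the 10 genes in the combined list and open points the 60 that are not. Of the genes in the list, 7 lie between 343 and 1509.4, and the other 3 between 77.6 and 92.7, among the highest genes that did not pass.

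The strongest mRp peak was at mRpL41, whose protein belongs to the large subunit and has no bacterial counterpart. It lay on 2R at 15217592 to 15217911 and had a signal of 1509.4 in the combined list, 883 in replicate 1 and 626 in replicate 2. Its rank was 4 of the 2877 peaks of the combined list on the main arms, and 5 among the candidate regions of each replicate. The summit lay 127 bp upstream of the TSS of mRpL41 and 635 bp from that of the neighbour CG8079, which points the other way.

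The peak at mRpS23, which encodes a small subunit protein specific to mitochondria, ranked 6 with a combined signal of 1313.8. Replicate 1 gave 682 and replicate 2 gave 624. Its rank among candidate regions was 8 in replicate 1 and 6 in replicate 2. The summit lay 386 bp upstream of mRpS23 and 106 bp from CenG1A, a GTPase-activating protein for Arf.

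At mRpS10 the combined signal was 1210.7 (rank 10), with 624 in replicate 1 and 583 in replicate 2. In bacteria its counterpart sits in the head of the small subunit. The summit lay at the midpoint between mRpS10 and Art3, an arginine methyltransferase gene, 129 bp from one TSS and 128 bp from the other.

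At mRpL23, whose bacterial counterpart stands at the exit of the peptide tunnel, the combined signal was 996 (rank 18), with 517 and 482 in replicates 1 and 2. This peak, on 3L at 2373451 to 2373761, was the only one of the 10 with its summit downstream of its gene's start, 84 bp from the nearest of the annotated TSSs of mRpL23 and in an intron of it. The start of CG9004 lay 134 bp from the summit. The most upstream TSS of mRpL23 lies 24 bp from that of CG9004, the shortest spacer of the 10.

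A second set of 3 peaks followed between rank 136 and rank 213, each under 0.5 of the signal at mRpL23. At mRpS2, a small subunit gene, the combined signal was 436, with 213 in replicate 1 and 218 in replicate 2. At mRpL20, whose bacterial counterpart is needed early in the assembly of the large subunit, it was 386, with 165 and 211. At mRpL24, another large subunit gene whose bacterial counterpart lies near the tunnel exit, it was 343, with 165 and 171. In both replicates mRpS2 was the highest of these 3, and mRpL20 and mRpL24 were level in replicate 1 and apart in replicate 2.

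The partners on the other side of these 3 promoters were Mon1, which acts in endosome maturation, Icmt, a methyltransferase for prenylated proteins, and betaggt-I, a subunit of a prenyltransferase. Each partner's TSS was closer to the summit than that of the mRp gene, at 73, 126 and 76 bp against 149, 273 and 142 bp.

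The last 3 peaks were weak. At mRpS7, a small subunit gene, the signal was 92.7 (rank 1910), with 50.9 in replicate 1 and 48.9 in replicate 2. At mRpL4, whose bacterial counterpart lines the peptide tunnel, it was 79.0 (rank 2431), with 69.3 in replicate 2 and no candidate region in replicate 1. At mRpS17, a small subunit gene, it was 77.6 (rank 2478), with 39.7 and 37.3. The peak at mRpL4 thus rests on 1 replicate, and it was absent from the conservative list. The peaks at mRpS7 and mRpS17 were in neither replicate's own list, although they were in the conservative list. The summit counted for mRpS17 lay 535 bp upstream of it and 99 bp from the start of Nop60B, a nucleolar pseudouridine synthase gene, in an intron of Nop60B.

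**Figure D2:**
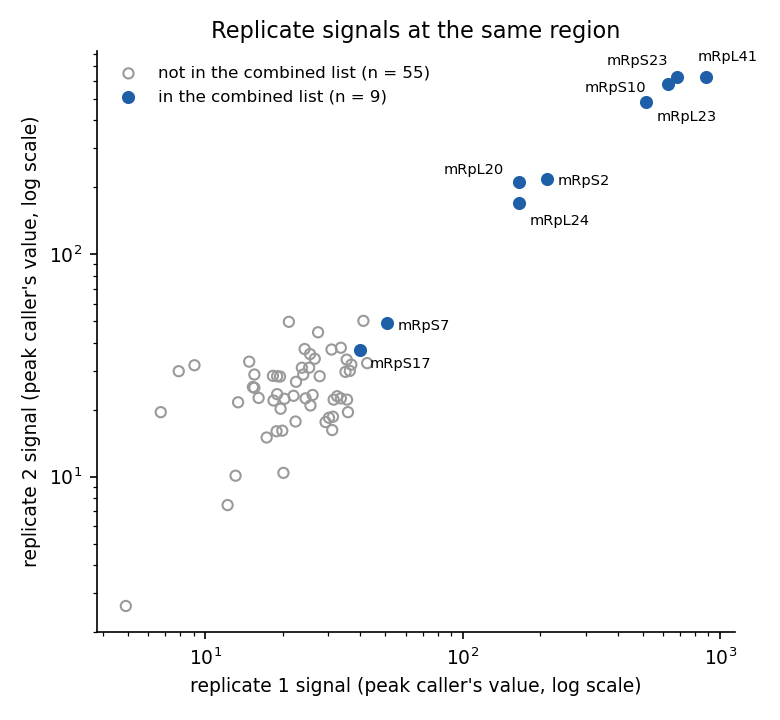
Signal of the candidate region in replicate 1 against replicate 2 (both log axes, the peak caller's values, each on the scale of its own list) at the same place, for the 9 mRp peaks and the 55 other mRp regions found in both. The 7 strong peaks lie apart from all other mRp regions in both replicates, with ranks among candidate regions from 5 to 264 in replicate 1 and from 5 to 209 in replicate 2.

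Of the 10 mRp peaks, 7 (70.0%) were in the lists of both replicates, beside 47.7% of the 1597 other promoter peaks. These 7 are the strong ones, and peaks in the upper part of the list are found in both replicates more often: 81.8% of the other promoter peaks above the median were. The median signal was 411 for the mRp peaks and 122 for the other promoter peaks, a description only, since the group was chosen with such signals known. The mRp peaks fell into 7 from 343 up and 3 from 92.7 down, with none between.

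The IDR threshold, not the signal, separated the weak peaks from the regions that did not pass. The IDR, or irreproducible discovery rate, is lower the better a region's rank is repeated between 2 sets of reads, and the combined list holds regions at 0.01 or less. The sources used here do not say which sets were paired for this list, and mRpL4 passed with no candidate region in replicate 1, so its IDR is not read as a match between the replicates. Just inside the threshold were mRpS17 at 0.00682, mRpL4 at 0.00457 and mRpS7 at 0.0025, followed by mRpL24 at 2.9e-05, mRpL20 at 2.01e-05 and mRpS2 at 1.18e-05. Just outside it, in order of signal, was mRpL32, with 87.7 in the combined candidate list, 41.1 in replicate 1, 50.2 in replicate 2 and a global IDR of 0.0106. Its signal was higher than those of mRpL4 and mRpS17, which passed.

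The next were mRpL51 at 73.7 (42.5 and 32.4 in the replicates, IDR 0.0147) and mRpS24 at 73.2 (21.1 and 49.7, IDR 0.653). After these came mRpL18 at 71.9 (30.9 and 37.3, IDR 0.0113), mRpS18B at 71.4 (36.4 and 29.9, IDR 0.0133) and mRpS6 at 70.4 (35.4 and 33.6, IDR 0.539). These 6 regions and the 3 weak peaks form a continuous range of signals with no gap. All 6 genes have a head-to-head neighbour, which is Uba4 for mRpL51, qless, an enzyme of ubiquinone synthesis, for mRpL32, and Apc2, Taz, Kua and Cip4 for the others in the order given.

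Most mRp genes without a peak still had a candidate region. Of the 63, 60 (95.2%) had one within 1 kb, beside 88.2% of all genes without a peak. Their highest signal ran from 3.63 at mRpL13 to 87.7 at mRpL32. The median was 46.1, with quartiles of 39.4 and 58.2. Across the 10598 protein-coding genes without a peak that had a candidate region, the median was 42.5 and the quartiles 32.8 and 54.1. The mRp genes without a peak were therefore slightly higher than other such genes, by less than the distance between the quartiles. No combined candidate region was found at mRpL14, mRpL40 and mRpS5.

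The arrangement of the genes was taken from the annotation, without use of the signal. Of the 73, 58 (79.5%) have a protein-coding gene in head-to-head orientation within 1 kb upstream, beside 36.2% of all protein-coding genes. The arrangement was also more frequent than among all genes in the lists compared below, with 60.2% for cytosolic ribosomal protein genes, 55.0% for mitochondrial translation and 50% for the respiratory chain. The median spacer between the starts was 283 bp, close to the 298 bp of all head-to-head pairs. A single annotated TSS was found for 67 mRp genes (91.8%), beside 73.5% of all genes. Head-to-head neighbours were also common among the mRp genes without a peak, at 48 of 63 (76.2%), beside 32.9% of all genes without a peak.

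All 10 mRp genes with a promoter peak have a head-to-head neighbour, beside 56.7% of all genes with a peak. Read within head-to-head genes, 10 of 58 mRp genes (17.2%, interval 8.59 to 29.4%) had a peak, beside 21.7% of all genes with such a neighbour. Among genes without one, 0 of 15 mRp genes had a peak, which allows a share of up to 21.8%, beside 9.4% of all genes. Against these backgrounds the mRp genes stood no higher than other genes of like arrangement.

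**Figure D3:**
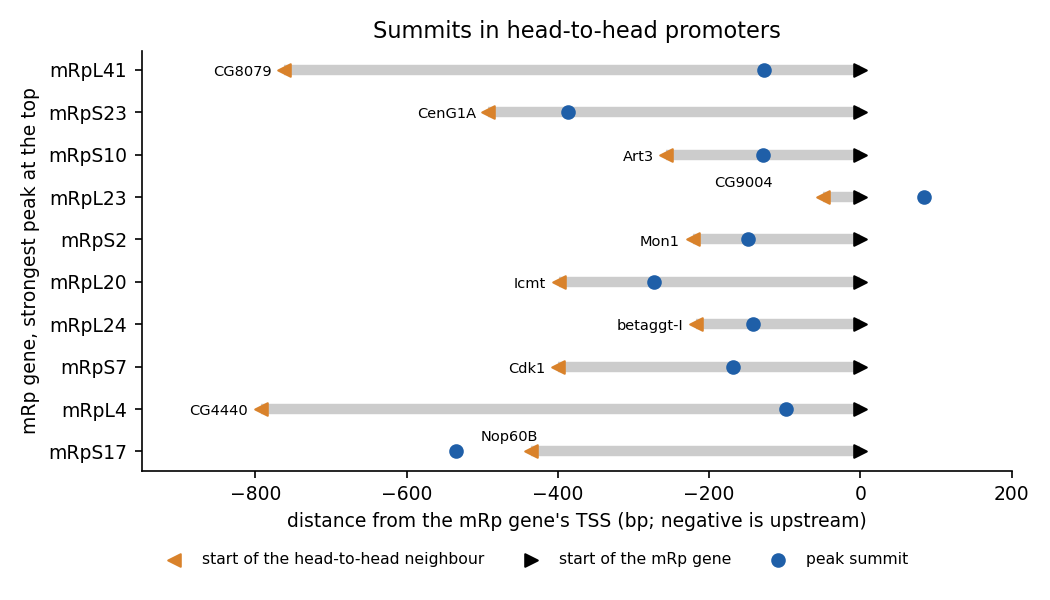
Peak summits (circles), start of the mRp gene (right-pointing triangle at 0, the TSS nearest to the summit) and start of the head-to-head neighbour (left-pointing triangle) in bp from the mRp TSS, for the 10 mRp genes with a promoter peak, strongest at the top. In 8 promoters the summit lies between the starts, and at mRpL23 and mRpS17 it lies outside.

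Most summits lay inside the spacers rather than on either gene. In 8 of 10 cases the summit fell between both starts, beside 425 (62.7%) of the 678 other promoter peaks that lay within 1 kb of a gene with a head-to-head neighbour. The same 8 were intergenic, the other 2 intronic, and none lay in an exon. The distance to the mRp gene's own start ranged from 84 to 535 bp with a median of 146 bp, and 7 summits were within 200 bp. The mRp gene was the nearest gene at 4 summits only, those at mRpL41, mRpL23, mRpS7 and mRpL4. At the other 6 the neighbour was nearer, by 1 bp at mRpS10 and by more elsewhere. Whether a peak belongs to the mRp gene or to its neighbour cannot be told apart from these data.

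The strong summits had a lower median GC content than other promoter peaks above the median signal, though not each of them was lower. Over 100 bp on each side, the GC content was 26.9% at mRpL41, 35.8% at mRpS23, 30.3% at mRpS10 and 34.8% at mRpL23. It was 26.9% at mRpS2, 26.4% at mRpL20 and 30.8% at mRpL24. The median of these 7 was 30.3%, beside 35.1% for the 888 other promoter peaks above the median signal, whose values ran from 18.4 to 67.7%. The summit at mRpS23 was above 35.1%. Signal was not matched in this comparison: the 7 ran from 343 to 1509.4, and the 888 started at 112. Other promoter peaks below the median signal had a median GC content of 42.8%, and the part of signal in the GC values was not tested. Of the 7, 85.7% lay between head-to-head starts, beside 31.8% of the 888, and the part of this placement in the GC values was not tested. All 7 have a head-to-head neighbour, whereas the 888 include peaks without one, which cannot lie between starts. Among the 678 other promoter peaks of any signal with such a gene within 1 kb, 62.7% lay between. The weak peaks did not share a level: the summit at mRpS7 had the lowest GC content of the 10, 25.9%, and those at mRpL4 and mRpS17 had 40.3 and 47.3%.

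The motifs of the domains that gsb carries were searched first. The homeodomain core TAATTA, searched on both strands within 100 bp, was found at 3 of 10 (30.0%), those of mRpS2, mRpL24 and mRpS7, beside 13.4% of other promoter summits. These windows had GC contents of 26.9, 30.8 and 25.9%, and the part of base composition in this count was not tested. The paired domain core GTCACGC was found at 0 of 10, beside 1.13%. Both copies at mRpS2 and both at mRpS7 can be read in the sequences above.

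ACAGTG and AGGGTA were searched because they led over all peaks in an earlier look at these same data. Their counts at summits are therefore descriptions only. ACAGTG was found at 3 of 10 summits, beside 19.3% of the others. The window at mRpS23 held 3 copies, 1 near each edge and 1 close to the summit. Among the 1597 other promoter summits, 2 (0.125%) held as many, and none held more. Single copies lay at mRpS2, in the exon left out of the printed window, and at mRpL4. AGGGTA was found at 1 summit, beside 6.76% of the others. That summit, at mRpS10, held 2 copies, which stand near both ends of the printed sequence, toward Art3 and toward mRpS10. GAGAG, the core bound by GAGA factor, was found at 2, beside 25.2%. The windows of the 4 strongest mRp peaks thus had no searched motif in common. Besides the paired domain core, 4 motifs were found at 0 of 10. TATCGATA, to which the promoter factor DREF binds, was at 4.38% of other promoter summits. Within 150 bp it was at 2 of 10, beside 6.01%. GGTCACACT, the core bound by the promoter factor M1BP, was at 1.63%, and GCGCATGC, the element bound by the NRF-1 homologue erect wing, at 0.689%. TCAAGGTCA, the element of the estrogen-related receptor, was at 0% of them.

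The promoters themselves, from 250 bases before to 50 after the most upstream TSS, had 1 motif in more than 50% of cases. CAGCTG, an E-box core of the kind bound by basic helix-loop-helix proteins and listed among core promoter elements in Drosophila, was in 40 of the 73 mRp promoters (54.8%, interval 42.7 to 66.5%), beside 17.7% of all 13945 promoters. Since CAGCTG reads the same on both strands, each copy was counted once. Among genes with a head-to-head neighbour, 53.4% of the 58 mRp promoters with one held the core, beside 22.0% of all such promoters.

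Most copies stood at the start of transcription. Of 45 copies, 28 (62.2%) had their centre within 25 bases of the TSS, beside 30.7% of the 2776 copies in all promoters. The bin from 0 to 25 bases after the start alone held 19 copies, or 26.0 per 100 mRp promoters, beside 3.17 per 100 of all promoters. The following sites are shown to place the core in its context. They belong to mRp genes that have the core and a high candidate region, in the direction of the gene, from dm6, with the core in capitals and 10 bases on each side.
mRpL23, chr3L:2373717-2373742: ggttgacaatCAGCTGtttaaaacaa
mRpS2, chr2L:4850415-4850440: cactacccacCAGCTGtttaccaaaa
mRpL24, chr2L:4945326-4945351: cagttctcaaCAGCTGattgcaagcc
mRpL32, chr3R:31252846-31252871: atcgatagcaCAGCTGtttcctcttg
mRpL51, chr2L:8517592-8517617: tgactgcaatCAGCTGatgaatgtcg
mRpS24, chr3R:24163510-24163535: tcacgtcaatCAGCTGttgctggacg
mRpS18B, chr2L:20097218-20097243: tatcggaaaaCAGCTGatccgccggc
mRpS6, chr3L:4364554-4364579: ttccttgcatCAGCTGttaacactat

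In these 8, the centre of the core lay 25 bases before the start at mRpL23, 13 before at mRpL32 and 8 before at mRpS2. It lay 17 bases after the start at mRpS6 and 23 after it at mRpL24, mRpS24 and mRpS18B. At mRpL51 it lay far upstream, 224 bases before the start and past the start of Uba4, which is 31 bp from that of mRpL51. Among the mRp genes with regions of like height that also have the core and whose sites are not shown, it lay 6 bases before the start at mRpL41, 19 after it at mRpS17 and 65 before it at mRpL18. The copy printed for mRpL23 stands on the start of its neighbour CG9004, which is 24 bp from that of mRpL23.

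**Figure D4:**
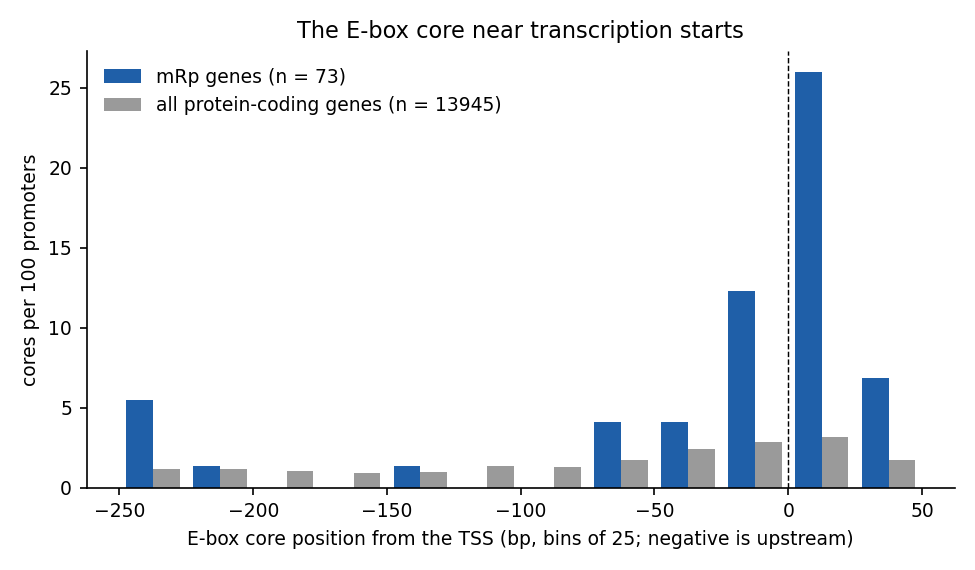
Position of the E-box core from the TSS (bp, bins of 25 bases) as copies per 100 promoters, for the 73 mRp genes and for all 13945 protein-coding genes. The mRp promoters reach 12.3 and 26.0 copies per 100 in the bins just before and just after the start, beside 2.85 and 3.17 for all genes.

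The E-box core was found both in mRp promoters with a peak and in those without. It was in 5 of the 10 promoters with a peak (interval 18.7 to 81.3%) and in 35 of the 63 without (55.6%, interval 42.5 to 68.1%). Among all protein-coding genes it was in 23.8% of promoters with a peak and 16.7% of those without. At the summits, which mostly lie farther upstream, it was found within 100 bp at 2 of 10, mRpS2 and mRpL24, beside 12.2% of other promoter summits. At both, the copy counted was not the copy printed above near the mRp start. It lay on the other side of the summit, toward Mon1 and betaggt-I. Within 150 bp the E-box core was found at 4 of 10 summits, beside 19.7%.

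TATCGATA was in 15 mRp promoters (20.5%, interval 12 to 31.6%), beside 9.36% of all promoters and 15.8% of those with a head-to-head neighbour. Of the mRp genes with a peak, mRpS23, mRpL20 and mRpL4 had it. GGTCACACT was in 8 (11.0%), beside 6.05%, and ACAGTG in 13 (17.8%), beside 13.9%. GAGAG was less common in mRp promoters, with 12 (16.4%) beside 29.7%. TAATTA was at the level of all genes, with 15 (20.5%) beside 20.4%. The rest were AGGGTA in 6 (8.22%, beside 5.85%), GTCACGC in 1 (1.37%, beside 1.51%), GCGCATGC in 1 (1.37%, beside 1.05%) and TCAAGGTCA in 0, beside 0.122%.

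The ribosomal protein genes of the cytosol had promoter peaks more often than the mRp genes, and their strongest peaks were lower. This list was taken by symbol, as RpL, RpS or RpLP with a number, and sta. Of 93 cytosolic ribosomal protein genes so chosen, 50 (53.8%, interval 43.1 to 64.2%) had a promoter peak, with a median signal of 133 and a maximum of 409 at RpS27. The next were RpL34b at 353, RpL32 at 342 and RpL7 at 277. The 50 include RpLP0-like at 81.5, which is in the list by its symbol only. No cytosolic ribosomal protein gene reached the signals of the 5 strongest mRp peaks. High mRp signals were part of why the group was examined, so nothing is read from this difference in signal. The promoters of both groups differed as well: the E-box core was in 9 of 93 cytosolic promoters (9.68%), and TCTTT, the core of the polypyrimidine initiator typical of cytosolic ribosomal protein genes, lay within 10 bases of the start in 30 of 93 (32.3%) and in 0 of 73 mRp genes, beside 2.25% of all genes.

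The other nuclear genes for mitochondrial functions had shares of peaks near those of the mRp genes and of all genes. Of 90 respiratory chain genes, 12 (13.3%, interval 7.08 to 22.1%) had a promoter peak, with a median of 112. The highest were ND-ASHI at 314, ND-MWFE at 195, COX5A at 132 and ATPsynCF6 at 124. Of 40 genes for mitochondrial translation and genome expression whose symbol does not start with mRpL or mRpS, 5 (12.5%, interval 4.19 to 26.8%) had a peak. That list came from 37 named symbols, 12 of them absent from the annotation, and 15 mitochondrial aminoacyl-tRNA synthetase genes. The named symbols include bonsai and tko, genes of the mitochondrial ribosome that the prefix leaves out. The list is therefore not fully separate from the mitochondrial ribosomal proteins.

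Those 5 ranged nearly as widely as the mRp peaks. PNPase, a ribonuclease that acts on mitochondrial RNA, had a combined signal of 1253.2, with 644 in replicate 1 and 612 in replicate 2. SLIRP2 and SLIRP1, RNA-binding proteins, had 656 and 130, LeuRS-m, the mitochondrial leucyl-tRNA synthetase, 390, and mtTFB1, a mitochondrial rRNA methyltransferase, 76.3. The peak at LeuRS-m lay 872 bp upstream of its start, on the side of Dhc64C, its head-to-head neighbour. This list was also closest to the mRp genes in the E-box core, with 19 of 40 promoters (47.5%), beside 21 of 90 (23.3%) for the respiratory chain.

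**Figure D5:**
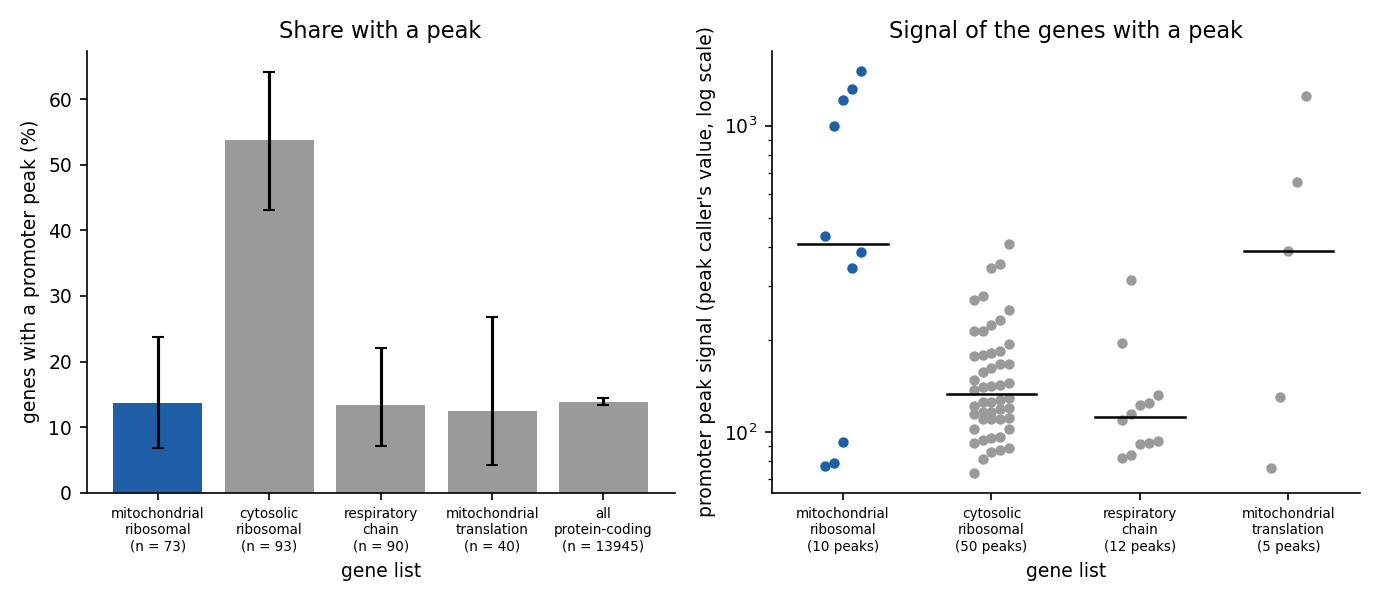
Left, share of genes with a promoter peak in each list, with exact 95% intervals; right, signal (log axis, the peak caller's value) of each gene with a peak, with the median as a line. The mRp genes stand at 13.7% with a median of 411, and the cytosolic ribosomal protein genes at 53.8% with a median of 133.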

How the data were processed

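The authors deposited ranked candidate lists and IDR-thresholded peak lists, for single replicates and for the pair, on dm6 per the labels. The accompanying notes in the deposit say that the lists derive from the library alignments and a further file, and do not say whether a control entered the peak calls. The sources used here do not give the aligner, the peak caller or their settings. Per the labels, sonication gave fragments of 200 to 800 bp. The deposited signal is the peak caller's value, and the deposited −log10 of the global IDR was turned back into an IDR here. Summits on the 6 main arms were joined to protein-coding TSSs of Ensembl release 115. Sequence came from RefSeq's copy of Release 6. The combined list held 2877 peaks, and the lists of replicates 1 and 2 held 1864 and 1701. All numbers were computed with Python 3.11.15, numpy 2.4.6, pandas 2.3.3 and scipy 1.17.1, and the lookup was tested on simulated data.

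Members, lists and the motifs ACAGTG and AGGGTA were chosen with earlier results of these data known. All mRp genes with a peak are named, with the 6 highest without one, the 4 strongest of each comparison list and all of the mitochondrial translation list. The E-box positions were examined after the motif counts were seen. Replicate values come from the candidate region at the same place in that replicate's list. The alternatives were other lists, windows, thresholds, annotations and ways of giving a peak to a gene.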

Additional observations from a re-analysis of the deposited data

Results flagged for a closer look

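mRpL32 had a promoter peak in the conservative list that was not in the combined list, with a signal of 87.7. It was picked out because it is a signal outside the list used for the counts above. The summit lay between mRpL32 and qless, and the promoter holds both the E-box core and TATCGATA.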

How the results depend on the processing

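The number of mRp genes with a promoter peak was 10. It was 21 with a window of 2 kb (28.8% of the group, beside 18.1% of all genes) and 4 when only the nearest gene was counted (5.48%, beside 10.3%), and it ranged from 7 to 8 in the lists of single replicates. The median percentile of the members' peaks within their list was 94.6, with 55.3 at 2 kb, 66.5 for the nearest gene only, and 95.9 to 98.9 in the replicate lists. Of the 7 summits within 200 bp of their own start, 2 were within 100 bp, and the replicate lists gave 5 to 6. Within 50 bp of the summit, AGGGTA was at 0% of summits, and so were the E-box core and the GAGA factor core. With alternatives chosen after seeing the data, the share with a head-to-head neighbour within 300 bp was 45.2% (beside 18.4% of all genes), and the share of promoters with the E-box core was 52.1 to 61.6%. Within 150 bp, TATCGATA went from 0 to 20%, the E-box core from 20 to 40% and ACAGTG from 30 to 40%, inside the wide exact intervals of 10 summits. The other counts moved by at most 1.5 times, and the other shares stayed inside their exact intervals. The cause of the changes was not tested. No paired analysis was possible because there is 1 group. The peak lists give no depth, which limits every share and signal here.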

Other observations

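With the window of 2 kb, 11 further mRp genes had a summit at 1 to 2 kb, with signals from 68.6 to 470 and a median of 99.1. Of these summits, 7 lay within 1 kb of another gene's TSS. The highest, counted for mRpL46 at 470, lay 105 bp from the start of PolD2, a DNA polymerase delta subunit gene, and 1911 bp from mRpL46. That counted for mRpS24 at 288 lay 106 bp from TBC1d7, and that for mRpL13 at 218 lay 131 bp from CG10602. The summit counted for mRpL27 at 121 lay 27 bp from RpL27A, a cytosolic ribosomal protein gene. Of the 11, only the summit at mRpS29 (88.6, at 1115 bp) had the mRp gene as its nearest gene. A peak farther away, 14953 bp from mRpL40, had a signal of 102 and no nearer protein-coding TSS.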
